A study of Mus musculus with 2 samples.

Results

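Pf4, Ppbp, Gp1bb, Itgb3, Itga2b and Treml1 are 6 mouse genes whose proteins are stored in, or displayed on, platelets and the megakaryocytes that make them. They are described here in single-cell RNA sequencing of bone marrow cultures, as 6 of the 47729 genes in the count matrices, and all 6 were matched by symbol. They were chosen because earlier results from these libraries showed them higher in one of them, so their difference between the libraries is a description and carries no test.

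Platelet factor 4 (Pf4, CXCL4) and pro-platelet basic protein (Ppbp, CXCL7) are CXC chemokines kept in the alpha granules of platelets and released on activation. Cleaved forms of Ppbp draw neutrophils through the receptor CXCR2, whereas Pf4 binds heparin-like sugars tightly. Gp1bb encodes the glycoprotein Ib beta chain, which with Gp1ba, Gp9 and Gp5 forms the platelet receptor for von Willebrand factor. Itga2b (CD41) and Itgb3 (CD61) are the chains of the platelet fibrinogen receptor. Treml1 encodes TLT-1, an alpha granule membrane receptor that reaches the platelet surface on activation. In bone marrow, these genes mark the megakaryocyte lineage, although Itga2b is also carried by early progenitors and mast cell precursors, and Itgb3 by macrophage-lineage cells such as osteoclasts.

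Both libraries came from femur bone marrow of C57BL/6NCrljOri, H-2b mice, freed of red cells by lysis and grown for 5 days with 40 ng/mL GM-CSF, a cytokine that drives myeloid growth. The first library held live CD11b-high Ly6C-high cells sorted from the culture without human mesenchymal stromal cells (MSC). The second held live CD11b-mid Ly6C-mid cells sorted from the culture in which human MSC shared the medium through inserts of 0.4 µm pore size, where they had been kept for 24 h beforehand, with 5 bone marrow cells for each MSC. CD11b is a myeloid integrin chain and Ly6C a surface protein of monocytes and granulocytes. The labels name RPMI1640 for the bone marrow culture and DMEM for the coculture, and give no age, sex or number of mice. Sort gate, MSC, medium and library differed together and cannot be told apart, and with 1 library per group no difference has a replicate check.

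A unique molecular identifier (UMI) marks 1 captured RNA molecule, and CPM is the UMI count of a gene as a share of the UMIs of all genes, scaled to the usual common total for such counts. A barcode was kept when it had 500 genes or more and no more than 10% of its UMIs from mitochondrial genes, which left 1817 of 2180 without MSC and 3005 of 3134 in the coculture. They held 27784963 and 29089241 UMIs, with medians of 7016 and 6031 UMIs per barcode. The libraries shared 4 barcode sequences, 2 of them kept, and no doublets were removed. Every bracketed range is a 95% interval for counting error only. It treats molecules as independent, and is therefore too narrow where few barcodes hold most of a gene's UMIs.

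The kept barcodes fell into 18 clusters, made without the 6 genes. Cluster 14, with 150 coculture barcodes and none from the other library, had 10 of 14 megakaryocyte or platelet markers at 2-fold or more over the other barcodes and is called the megakaryocyte-marker cluster. Its 10 leading genes, among them Cd34, Gm15915, Ackr1, Pdzk1ip1, Col18a1 and Sdpr, held 1 marker of that list by symbol and 1 of the granulocyte-monocyte progenitor list, Cd34, so the name rests on the wider list. Sdpr, an older symbol of the listed platelet gene Cavin2, was not matched when the clusters were named. Tubb1, the platelet beta-tubulin, had 0 UMIs in the whole coculture library. Hbb-bt, a globin gene of red cells, stood at 429 CPM in this cluster, and its part in the results below was not tested.

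Pf4 and Ppbp are neighbours on chromosome 5, on the forward strand of GRCm38. Ppbp (ENSMUSG00000029372) lies at chr5:90768518-90770063 and Pf4 (ENSMUSG00000029373) at chr5:90772435-90773383, with 2371 bases between them. Gp1bb (ENSMUSG00000050761) lies on the reverse strand at chr16:18620317-18622403. Itgb3 (ENSMUSG00000020689) lies at chr11:104608000-104670476 on the forward strand, and Itga2b (ENSMUSG00000034664) at chr11:102453297-102470122 on the reverse strand. Treml1 (ENSMUSG00000023993) lies at chr17:48359916-48367176 on the forward strand.

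The start regions of Pf4, Ppbp and Gp1bb are shown because the results turn on these genes: the chemokines were found in cells with and without Gp1bb. Each is the RefSeq promoter of GRCm38.p6, 250 bases before the start and 50 after it, read 5′ to 3′ on the gene's own strand, and RefSeq promoters were matched for 5 of the 6 genes. Capitals mark 3 short motifs, searched on both strands. They are AGATAA, which holds the core bound by GATA factors, AGGAAG, which holds the core bound by ETS factors (printed as CTTCCT where it lies on the opposite strand), and TATAAA, the TATA box.
Pf4 (chr5:90772185-90772484, forward): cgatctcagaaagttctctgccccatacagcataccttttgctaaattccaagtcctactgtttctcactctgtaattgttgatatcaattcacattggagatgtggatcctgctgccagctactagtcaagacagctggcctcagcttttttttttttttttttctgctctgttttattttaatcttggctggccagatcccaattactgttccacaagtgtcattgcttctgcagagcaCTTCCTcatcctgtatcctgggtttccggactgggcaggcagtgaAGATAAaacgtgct
Ppbp (chr5:90768268-90768567, forward): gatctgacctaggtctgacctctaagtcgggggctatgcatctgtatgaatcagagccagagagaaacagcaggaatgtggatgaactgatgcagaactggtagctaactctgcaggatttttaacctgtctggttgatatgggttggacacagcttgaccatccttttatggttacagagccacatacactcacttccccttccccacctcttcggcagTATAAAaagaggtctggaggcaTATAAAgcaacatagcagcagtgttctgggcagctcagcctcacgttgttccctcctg
Gp1bb (chr16:18622354-18622653, reverse): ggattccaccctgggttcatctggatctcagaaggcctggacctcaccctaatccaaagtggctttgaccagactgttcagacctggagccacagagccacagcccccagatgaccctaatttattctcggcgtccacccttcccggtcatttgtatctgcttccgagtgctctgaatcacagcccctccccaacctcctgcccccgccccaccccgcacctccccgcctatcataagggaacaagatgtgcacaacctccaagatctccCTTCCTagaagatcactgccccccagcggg
The Pf4 window held AGATAA and AGGAAG, the Ppbp window held TATAAA at 2 places, and the Gp1bb window held AGGAAG. Counted from the start, these matches began at 37 and -9 in Pf4, -30 and -8 in Ppbp and 21 in Gp1bb. Only exact matches to all 6 letters were counted, so a window without a match can still hold a shorter core. Of 32851 mouse promoter windows of this length, 11.2% held AGATAA, 35.4% AGGAAG and 13.6% TATAAA. The Itga2b window held AGGAAG at 2 places, and the Treml1 window held none of the 3 motifs. These matches describe letters and do not show that a factor was bound.

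Pf4 gave 1878 UMIs in 349 barcodes without MSC and 52812 UMIs in 704 barcodes of the coculture. Its level was 67.6 CPM (64.6 to 70.7) and 1816 CPM (1800 to 1831), a ratio of 26.9-fold (25.7 to 28.1). Ppbp gave 6 UMIs in 6 barcodes without MSC, or 0.216 CPM (0.0792 to 0.470), and 3142 UMIs in 194 barcodes of the coculture, or 108 CPM (104 to 112). Pf4 was thus plainly detected in both libraries, whereas Ppbp was nearly confined in counts to the coculture library, with a ratio of 500.2-fold (229.5 to 1364).

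Gp1bb had 8 UMIs in 8 barcodes without MSC and 1769 UMIs in 118 coculture barcodes, from 0.288 CPM (0.124 to 0.567) to 60.8 CPM (58.0 to 63.7). On the same strand, Sept5 shares 1902 bases with Gp1bb and Gm49601 shares 1938 bases, 831 and 867 of them in the last exon of Gp1bb. Gm49601 is not among the gene symbols of the count matrices. Reads common to Sept5 and Gp1bb could be assigned to either gene or lost. Sept5 itself had 65 UMIs without MSC and 53 in the coculture. Itga2b had 21 UMIs in 17 barcodes against 5921 in 863, or 0.756 CPM (0.468 to 1.16) and 203.5 CPM (198 to 209).

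Itgb3 had 11 UMIs in 9 barcodes without MSC and 1731 UMIs in 265 coculture barcodes, or 0.396 CPM (0.198 to 0.708) and 59.5 CPM (56.7 to 62.4). Treml1 had 24 UMIs in 24 barcodes and 799 in 100, or 0.864 CPM (0.553 to 1.29) and 27.5 CPM (25.6 to 29.4). Fewer cells of a type and less RNA per cell cannot be told apart in these sums. All 6 genes were over 2-fold higher in the coculture library, with log2 ratios from 4.75 for Pf4 to 8.97 for Ppbp and a median of 7.48. Of the 8668 genes at 10 CPM or more in either library, 12.7% were at least 2-fold higher there and the median log2 ratio was 0.03, but the choice of the 6 genes used this same contrast, so nothing is read from their count.

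**Figure D1:**
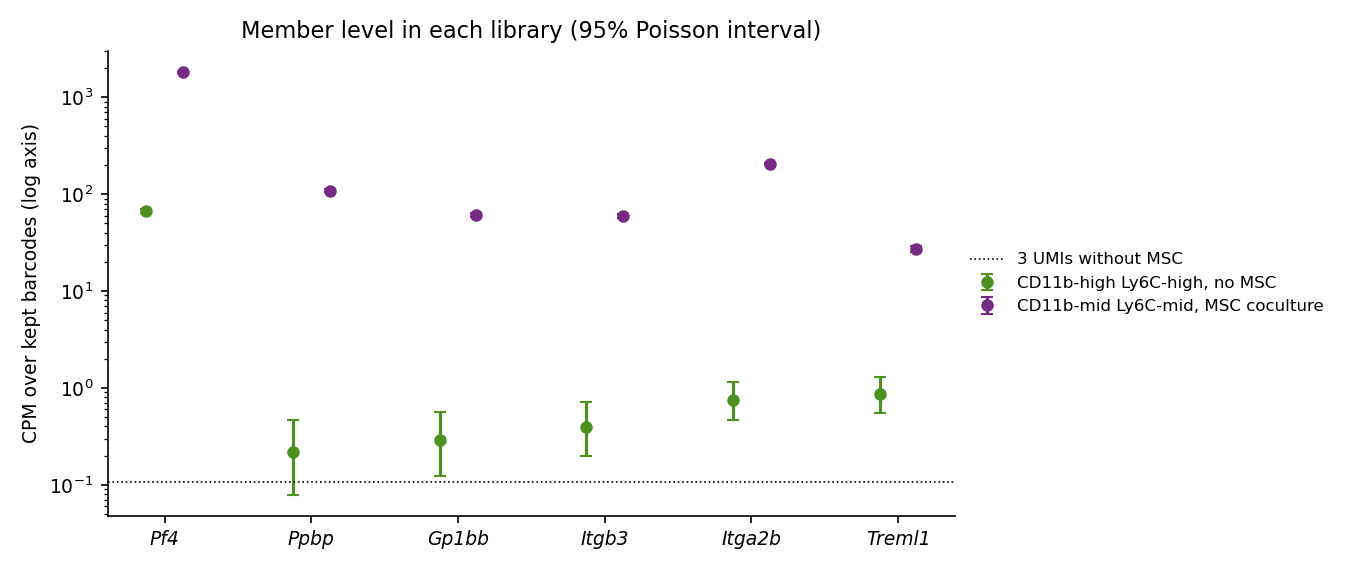
Level of each of the 6 genes in both libraries, in CPM on a log axis with 95% Poisson intervals, 1 library per point, and a dotted line at the level of 3 UMIs without MSC. Pf4 stands at 67.6 CPM without MSC, while the other 5 genes lie below 1 CPM there and between 27.5 and 203.5 CPM in the coculture.

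The share of barcodes with a UMI gave a smaller contrast for Pf4 than its level did. Pf4 was found in 19.2% (17.4 to 21.1%) of barcodes without MSC and 23.4% (21.9 to 25%) in the coculture. After each barcode was thinned to 2000 UMIs, which left out 140 and 265 shallower barcodes, the shares were 4.89% (3.91 to 6.03%) and 15.9% (14.6 to 17.4%). The Pf4-positive barcodes without MSC thus mostly held few molecules, with at most 80 in 1 barcode against 2097 in the coculture.

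Ppbp was found in 0.330% of barcodes without MSC and 6.46% in the coculture (thinned, 0.0596% and 4.16%). The same shares were 0.440% and 3.93% for Gp1bb (thinned, 0.119% and 2.48%), and 1.32% and 3.33% for Treml1 (thinned, 0.0596% and 1.68%). The integrin chains were found in more coculture barcodes than Gp1bb. Itga2b stood at 0.936% and 28.7% (thinned, 0.179% and 12.6%) and Itgb3 at 0.495% and 8.82% (thinned, 0.119% and 5.04%). The 10 barcodes with most UMIs of a gene held between 14.3% (Itga2b) and 31.4% (Treml1) of its coculture UMIs, so each level rests in part on a few barcodes.

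The 6 genes divided into genes found almost only in the megakaryocyte-marker cluster and genes shared with other clusters. In that cluster, Gp1bb had 1758 UMIs in 109 of 150 barcodes, 99.4% of its coculture UMIs, at 582 CPM (555 to 610). Treml1 had 795 UMIs in 96 barcodes, 99.5% of its UMIs, at 263 CPM (245 to 282). Gp1bb had 11 UMIs and Treml1 had 4 in all other coculture clusters together. Both genes were at or near 0 outside the cluster.

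Itgb3 had 1540 UMIs in 120 barcodes of the megakaryocyte-marker cluster, 89.0% of its UMIs, at 510 CPM (484 to 536). Its remaining UMIs lay mainly in basophil or mast cell-like cluster 11, with 85 UMIs in 67 of 345 barcodes (35.1 CPM), in B lineage-like cluster 12, with 35 UMIs (21.2 CPM), and in the 9 barcodes of cluster 17, with 27 UMIs. Cluster 17, led by stromal genes such as Timp1, Sparc and Ctgf, had Itgb3 in 9 of 9 barcodes, at 118 CPM.

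Itga2b had 4199 UMIs in 136 barcodes of the megakaryocyte-marker cluster, 70.9% of its UMIs, at 1389 CPM (1348 to 1432). It was also widespread in granulocytic clusters that lacked Gp1bb almost entirely. The basophil or mast cell-like clusters held 680 Itga2b UMIs in 294 of 417 barcodes, or 194.7 CPM, and the eosinophil-like clusters 937 in 370 of 481, or 109.7 CPM. The B lineage-like clusters stood at 4.07 CPM with a median depth of 2869 UMIs, and T or NK cell-like cluster 8 had 0 Itga2b UMIs, which allows up to 15.4 CPM (3 UMIs).

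The proportion of the integrin chains differed between these clusters. There were 36.7 Itgb3 UMIs per 100 Itga2b UMIs (34.6 to 38.9) in the megakaryocyte-marker cluster and 13.7 (10.9 to 17.0) in the basophil or mast cell-like clusters. In the eosinophil-like clusters there were 0.320 (0.0659 to 0.939), from 3 Itgb3 UMIs. Gp1bb stood at 41.9, 0.588 and 0.213 per 100 Itga2b UMIs in the megakaryocyte-marker, basophil or mast cell-like and eosinophil-like clusters. The 0.588 came from 4 Gp1bb UMIs, all in cluster 10 (2.42 per 100), with 0 in cluster 11. A ratio of 2 genes depends on how each is captured at its 3′ end, so it is compared between clusters and not read as a ratio of transcripts.

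The chemokines were spread over clusters in another way. Pf4 had 41810 UMIs in 109 of 150 barcodes of the megakaryocyte-marker cluster, 79.2% of its coculture UMIs, at 13835 CPM (13702 to 13968). Neutrophil-like cluster 2, led by Arg1, Cxcl3, Retnlg and Nos2, had 7750 Pf4 UMIs in 269 of 418 barcodes, 14.7% of the total, at 1809 CPM (1769 to 1850). Cluster 1, which was left unnamed and was led by Igha, Asgr2, C1qa and Ptx3, had 2626 Pf4 UMIs in 83 of 101 coculture barcodes, 4.97% of the total, at 1578 CPM (1518 to 1639). These 3 clusters were followed at a distance by mature dendritic cell-like cluster 7 at 94.6 CPM (81.5 to 109). The first 4 clusters in this order had intervals apart, but at Leiden resolution 1.2 (0.8 here) the clusters highest in Arg1 and in C1qa changed places, at 1704 and 1802 CPM. Further down, cluster 7, basophil or mast cell-like cluster 11 at 79.3 CPM and T or NK cell-like cluster 8 at 61.6 CPM overlapped.

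Ppbp had a different order. Cluster 1 stood at 520 CPM (486 to 556; 866 UMIs in 54 barcodes), the megakaryocyte-marker cluster at 446 CPM (422 to 470; 1347 UMIs in 63 barcodes) and cluster 2 at 197 CPM (184 to 211; 845 UMIs in 56 barcodes). These clusters held 27.6%, 42.9% and 26.9% of the Ppbp UMIs, so more Ppbp molecules lay outside the megakaryocyte-marker cluster than inside it. Cluster 7 followed at 26.4 CPM, from 52 UMIs in 10 barcodes. At resolution 0.4 the same cluster was highest in both C1qa and Arg1, and its Ppbp level stood at 289 CPM, below the megakaryocyte-marker cluster.

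**Figure D2:**
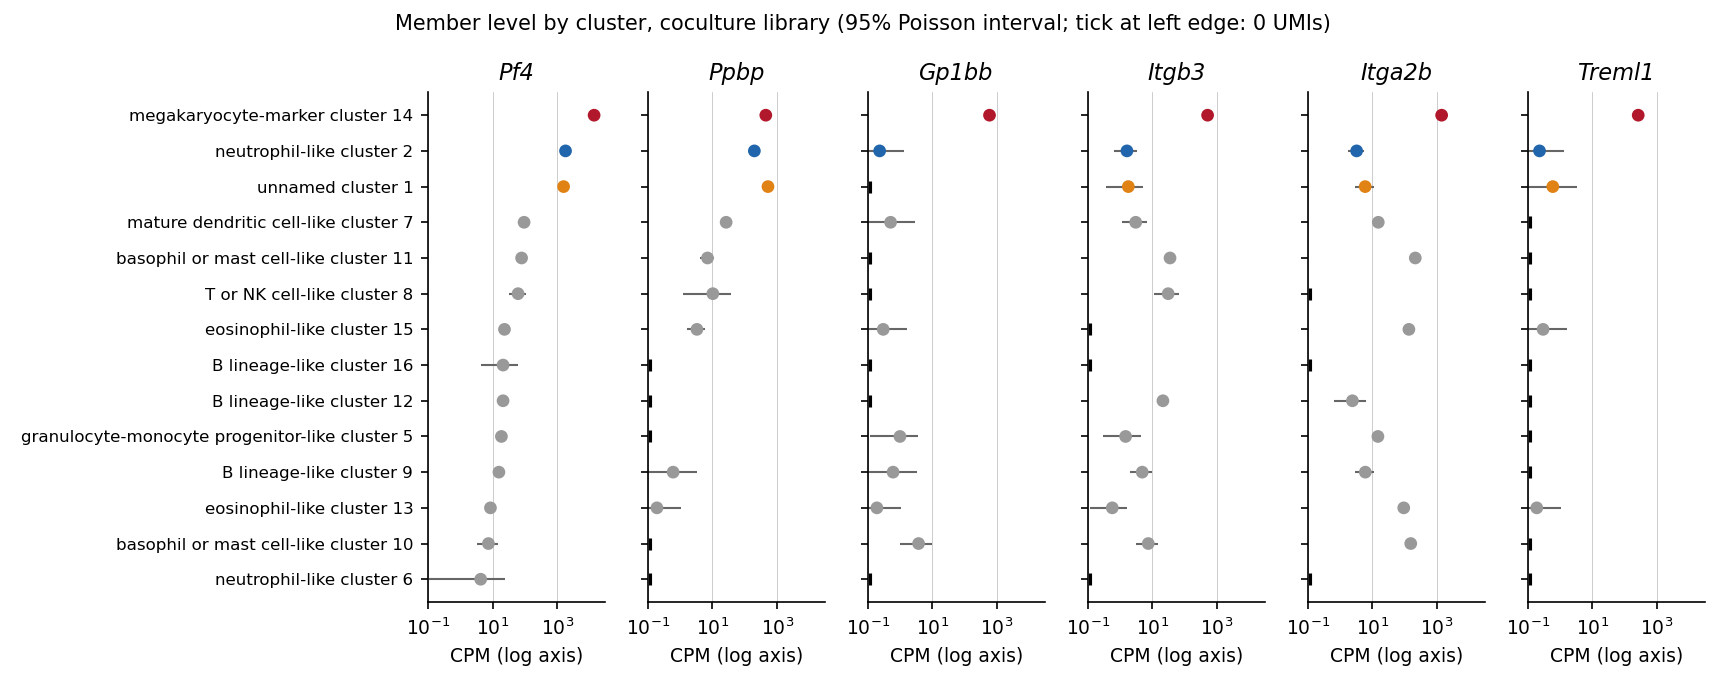
Level of each of the 6 genes in the coculture clusters of at least 20 barcodes, ordered by Pf4, in CPM on log axes with 95% Poisson intervals; a tick at the left edge stands for 0 UMIs. Pf4 and Ppbp are high in clusters 14, 2 and 1, Gp1bb and Treml1 in cluster 14, and Itga2b also in the basophil or mast cell-like and eosinophil-like clusters.

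No empty droplets were analysed here, so the lymphoid clusters serve only as cells not known to make these chemokines. In the B lineage-like clusters, Pf4 stood at 18.6 CPM (14.3 to 23.7), with a UMI in 51 of 910 barcodes (5.60%; thinned, 3.82%), and Ppbp had 1 UMI (0.290 CPM). In T or NK cell-like cluster 8, at a median depth of 1897 UMIs, Pf4 stood at 61.6 CPM (31.8 to 108; 12 UMIs, thinned share 12.2%) and Ppbp at 10.3 CPM (1.24 to 37.1; 2 UMIs). The thinned Pf4 share was 51.3% in cluster 2, 64.9% in cluster 1 and 64.4% in the megakaryocyte-marker cluster, whose median depths were 7443.5, 14704 and 17807 UMIs. The thinned Ppbp share was 8.21%, 33.0% and 28.9% in the same order, against 0.127% in the B lineage-like clusters. The CPM of both chemokines was higher in all 3 clusters than in either kind of lymphoid cluster, with intervals apart.

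The proportion of Ppbp to Pf4 differed among clusters by more than the counting intervals, which treat molecules as independent. There were 3.22 Ppbp UMIs per 100 Pf4 UMIs (3.05 to 3.40) in the megakaryocyte-marker cluster, 10.9 (10.1 to 11.7) in cluster 2 and 33.0 (30.5 to 35.6) in cluster 1. Cluster 7 had 28.0 (20.1 to 38.2), overlapping cluster 1, and cluster 11 had 8.85 (5.05 to 14.6), overlapping cluster 2. The intervals of the first 3 clusters did not overlap.

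**Figure D3:**
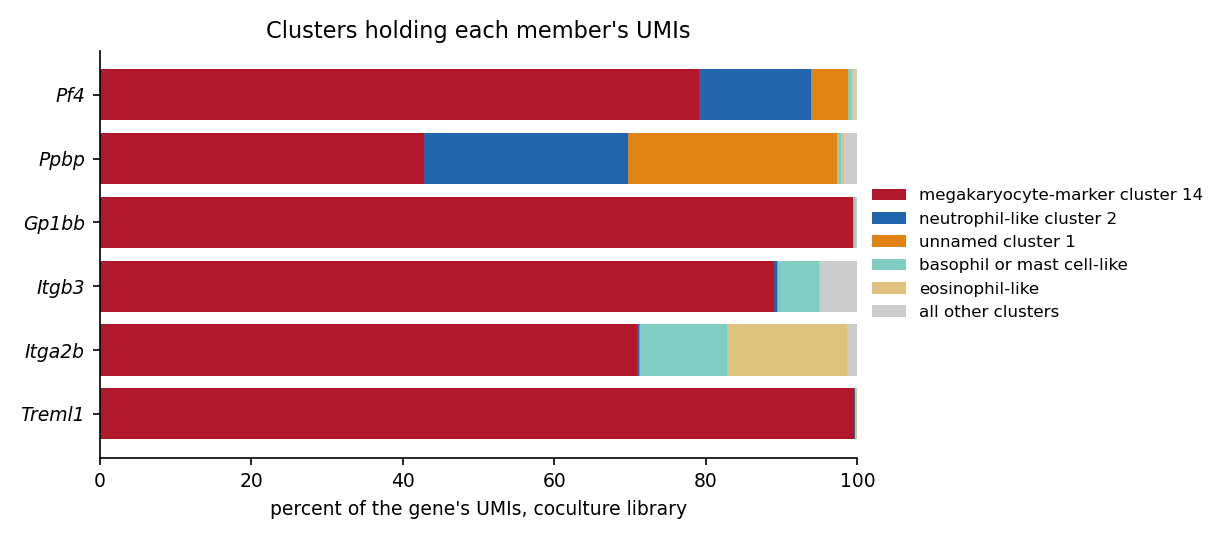
Percent of the coculture UMIs of each of the 6 genes held by cluster 14, cluster 2, cluster 1, the basophil or mast cell-like clusters, the eosinophil-like clusters and all others, as stacked bars. Cluster 14 holds 99.4% of Gp1bb and 99.5% of Treml1 UMIs but 42.9% of those of Ppbp.

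Without MSC, no barcode belonged to the megakaryocyte-marker cluster, and Pf4 lay in macrophage-like cluster 0. That cluster held 1854 of the 1878 Pf4 UMIs (98.7%), in 333 of 572 barcodes, at 102 CPM (97.8 to 107). The neutrophil-like cluster 4 of the same library had 4 Pf4 UMIs over 651 barcodes (1.21 CPM), and the 148 barcodes of cluster 1 from this library had 20 (6.85 CPM). The Pf4 level of cluster 1 thus stood at 1578 CPM in one library and 6.85 CPM in the other. This cluster was left unnamed, and its leading genes were taken over both libraries together. Whether its barcodes from the libraries are the same kind of cell was not tested, so these levels are not read as a change within a cell type. In macrophage-like cluster 0, Ppbp had 4 UMIs, 0.216 per 100 Pf4 UMIs (0.0587 to 0.553), a proportion lower than in any of the coculture clusters compared. The cluster also held 23 of the 24 Treml1 UMIs, at a median depth of 25472 UMIs per barcode.

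**Figure D4:**
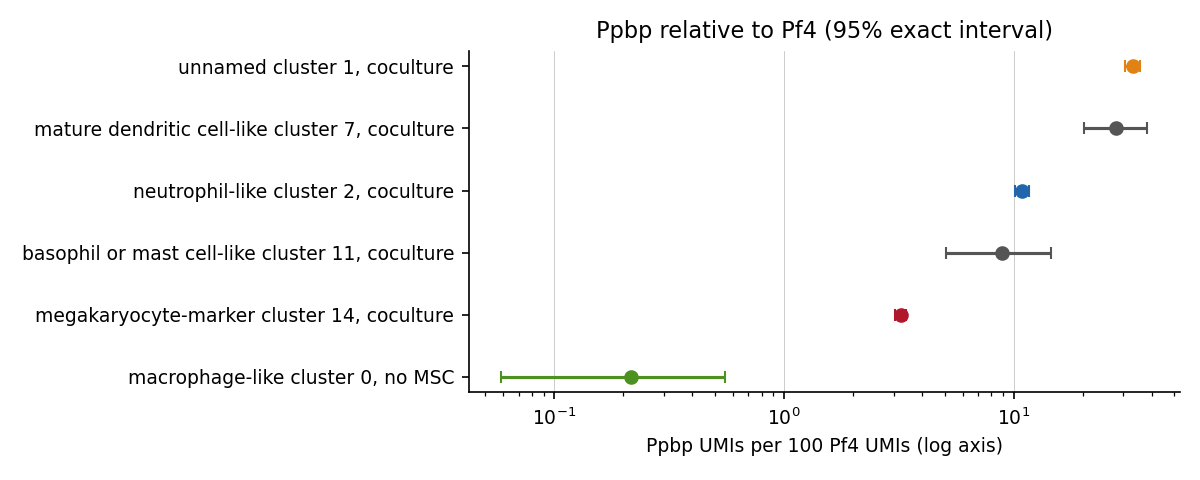
Ppbp UMIs per 100 Pf4 UMIs in macrophage-like cluster 0 without MSC and in 5 coculture clusters, on a log axis with exact 95% intervals. The proportion runs from 0.216 in cluster 0 through 3.22 in cluster 14 and 10.9 in cluster 2 to 33.0 in cluster 1.

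Of the 3005 coculture barcodes, 2887 had no Gp1bb UMI. They held 11439 Pf4 UMIs in 611 barcodes (21.2%), at 432 CPM (424 to 440), and 1808 Ppbp UMIs in 134 barcodes (4.64%), at 68.3 CPM (65.2 to 71.5). This was 21.7% of all Pf4 UMIs and 57.5% of all Ppbp UMIs of the library. The highest Pf4 count in a barcode without Gp1bb was 279, in the megakaryocyte-marker cluster, and outside that cluster it was 250, in cluster 2. By contrast, the 118 barcodes with Gp1bb, whose median depth was 21662 UMIs against 5745 in the others, stood at 15808 CPM for Pf4 and 510 CPM for Ppbp. Absence of a Gp1bb UMI does not show that the gene was off, since a shallow barcode can miss it.

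The Gp1bb-free chemokine molecules belonged mainly to the same pair of clusters. Cluster 2 held 67.2% of the Gp1bb-free Pf4 UMIs and 46.7% of the Gp1bb-free Ppbp UMIs. Cluster 1 held 23.0% and 47.9%, and the megakaryocyte-marker cluster 4.33% and 0.719%. Barcodes with no UMI of Gp1bb, Itga2b, Itgb3 or Treml1 numbered 2043, at a median of 4334 UMIs. They still stood at 684 CPM for Pf4 (460 barcodes) and 114 CPM for Ppbp (116 barcodes). This set also leaves out the Itga2b-positive barcodes of the eosinophil-like and basophil or mast cell-like clusters, which were low in Pf4. Its CPM is therefore over other cells and is not read as a rise. Gp1bb itself had 1 UMI in cluster 2, or 0.0129 per 100 Pf4 UMIs (0.000327 to 0.0719), and none in cluster 1, against 4.20 in the megakaryocyte-marker cluster. Without MSC, the 1809 Gp1bb-free barcodes held 1849 Pf4 UMIs (67.0 CPM), 98.7% of them in cluster 0, and 6 Ppbp UMIs.

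**Figure D5:**
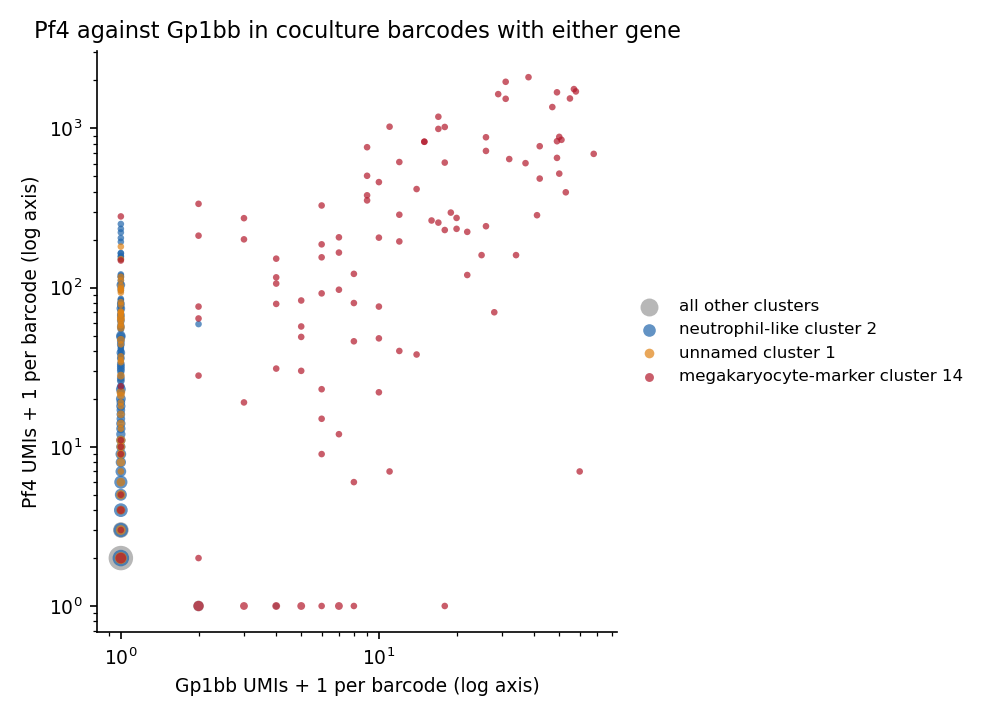
Pf4 against Gp1bb UMIs per coculture barcode, each plus 1 on log axes, for barcodes with either gene; point area grows with the number of barcodes at that pair of values, and colour gives the cluster. Clusters 2 and 1 stand at 0 Gp1bb UMIs with up to 250 Pf4 UMIs in cluster 2, apart from 1 barcode of cluster 2, while cluster 14 extends to 67 Gp1bb and 2097 Pf4 UMIs.

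Among Gp1bb-free coculture barcodes, 494 had Pf4 alone, 117 had both chemokines and 17 had Ppbp alone. Among barcodes with Gp1bb, 33 had Pf4 alone, 60 had both and 25 had neither. Of the 194 barcodes with Ppbp, 177 also had Pf4 (91.2%), while 177 of the 704 barcodes with Pf4 had Ppbp (25.1%). Ppbp therefore lay almost entirely within the Pf4-positive barcodes. The Gp1bb-free barcodes with both were deeper, at a median of 15872 UMIs, than those with Pf4 alone, at 10643.5.

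The glycoproteins were found together. Of the 118 Gp1bb-positive barcodes, 112 had Itga2b (94.9%), 106 had Itgb3 (89.8%), 93 had Pf4 (78.8%) and 92 had Treml1 (78.0%). The reverse share was small for Itga2b, with Gp1bb in 112 of its 863 barcodes (13%). Barcodes with 4, 5 and 6 of the 6 genes numbered 14, 32 and 57, all of them in the megakaryocyte-marker cluster, and no barcode of the library without MSC had more than 2.

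Within the megakaryocyte-marker cluster, the pooled levels of the other genes were higher in the barcodes with Gp1bb. Its 41 barcodes without Gp1bb, at a median of 13207 UMIs, stood at 841 CPM for Pf4 (17 barcodes), 22.1 CPM for Ppbp, 302 CPM for Itga2b, 83.3 CPM for Itgb3 and 18.7 CPM for Treml1. The 109 with Gp1bb, at 21469 UMIs, stood at 16976, 548, 1652, 613 and 322 CPM. These levels are pooled over barcodes, and single barcodes did not all follow them. Of the barcodes with Gp1bb, 1 with 17 Gp1bb UMIs had 0 Pf4 UMIs, and 1 with 59 had 6. A further 6 barcodes with 1 Gp1bb UMI had 0 Pf4 UMIs, and so did barcodes at each Gp1bb count from 2 to 7.

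Split by Gp1bb count, 30 barcodes with 1 to 4 UMIs, 49 with 5 to 19 and 30 with 20 or more had median depths of 14479.5, 19895 and 32242 UMIs. Pf4 stood at 4057, 13694 and 26872 CPM over these sets, Ppbp at 184, 442 and 842 CPM, and Treml1 at 111, 287 and 464 CPM. Itga2b stood at 1076, 1777 and 1802 CPM, and so differed little between the last pair of sets. Depth differed between the sets in the same order, and its part in these values was not tested.

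In cluster 2, the Arg1-led neutrophil-like cells, Pf4 was found beside different amounts of other lineage genes. Sets by Pf4 count, chosen after the data were seen, held 149 barcodes with none, 133 with 1 to 9 and 136 with 10 or more, with median depths of 4465, 7579 and 13242 UMIs. Ppbp stood at 2.61, 24.9 and 335 CPM over these sets. Arg1, the arginase of suppressive myeloid cells, stood at 1827, 2820 and 5613 CPM, whereas the neutrophil gene S100a9 stood at 45365, 27239 and 14067 CPM. The summed macrophage markers stood at 712, 1100 and 1985 CPM and the summed neutrophil markers at 99104, 69862 and 40885 CPM. Split by Ppbp, 56 barcodes of cluster 2 had it and 362 did not, at median depths of 15365.5 and 6629.5 UMIs. The complement gene C1qa was found in 23 of those with Ppbp (159 CPM) and 9 of those without (27.5 CPM). The summed macrophage markers stood at 2325 and 1240 CPM and the summed neutrophil markers at 41460 and 64989 CPM. The part of depth, of mixed barcodes and of these lineage genes in the Pf4 and Ppbp differences was not tested.

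The summed megakaryocyte or platelet markers did not follow Pf4 in cluster 2, at 65.2, 58.1 and 64.5 CPM over the sets, against 1414 CPM in the megakaryocyte-marker cluster. Of the 15 markers on that list, 8 had a UMI in cluster 2, and those at 0 included Gp1ba, Gp5, Gp9, Mmrn1 and Alox12. Tubb1 was at 0 there and in the megakaryocyte-marker cluster alike. In the set without Pf4, only 4 had a UMI, which were Vwf, F2rl2, Rab27b and Nbeal2. Without MSC, where no barcode was in the megakaryocyte-marker cluster, Nbeal2, Vwf and F2rl2 gave 1218, 923 and 411 UMIs and Rab27b gave 0. The flat sum is therefore not read as a measure of megakaryocyte RNA alone. In cluster 1, 4 of 15 had a UMI, at a summed 73.3 CPM, and those at 0 included Gp1ba, Gp5, Gp9, Gp6, Tubb1, Sdpr, Rab27b, Mmrn1, Alox12 and Ltbp1. The same list stood at 10.5 CPM (7.32 to 14.5) in the coculture B lineage-like clusters and at 97.1 CPM in macrophage-like cluster 0 without MSC, against 63.0 CPM in cluster 2 as a whole. The part of megakaryocyte RNA in the chemokine levels of clusters 2 and 1 was not tested.

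In cluster 1, barcodes with more Pf4 also differed in Ppbp and in genes of other lineages. Of its 101 coculture barcodes, 18 had no Pf4, 36 had 1 to 9 UMIs and 47 had 10 or more, and Ppbp stood at 4.58, 119 and 848 CPM over these sets. The complement gene C1qa stood at 472, 1190 and 1881 CPM, and Arg1 at 119, 331 and 939 CPM. S100a9 stood at 64.1, 492 and 5916 CPM and the summed neutrophil markers at 1172, 2758 and 16321 CPM, an order opposite to that in cluster 2. The summed macrophage markers stood at 3164, 6287 and 7298 CPM. The summed B lineage markers stood at 21000 CPM in the set without Pf4 and at 84.7 and 78.9 CPM in the others, so the B lineage RNA of cluster 1 lay mostly in its barcodes without Pf4. The part of these lineage genes in the Pf4 difference was not tested. In the 55 barcodes with at least 5 C1qa UMIs, also chosen after the data were seen, Pf4 stood at 2076 CPM and Ppbp at 754 CPM, and in the other 46 at 800 and 155 CPM.

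In macrophage-like cluster 0 without MSC, the sets with no Pf4, 1 to 9 and 10 or more UMIs held 239, 292 and 41 barcodes, with median depths of 19010, 31971 and 48707 UMIs. C1qa stood at 48.2, 60.9 and 131 CPM and Arg1 at 20.6, 37.7 and 115 CPM over these sets. The macrophage gene Mrc1 stood at 176, 148 and 118 CPM and the summed macrophage markers at 4897, 4574 and 4678 CPM. S100a9 stood at 4637, 6339 and 7657 CPM and the summed neutrophil markers at 10951, 14152 and 16742 CPM. C1qa, Arg1 and the neutrophil markers were thus higher in barcodes with more Pf4, while Mrc1 was lower and Ppbp stood at or below 0.456 CPM. The part of depth and of these genes was not tested.

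The partners of Gp1bb in the von Willebrand factor receptor were present at low counts. Gp5 gave 4 UMIs without MSC and 424 in the coculture, with a log2 ratio of 6.66 (5.29 to 8.54). Gp1ba gave 1 and 226 (log2 ratio 7.75, 5.26 to 13.06) and Gp9 gave 2 and 264 (6.98, 5.11 to 10.03), both below the 10 CPM minimum. The megakaryocyte-marker cluster held 88.7%, 94.7% and 92.0% of their coculture UMIs, so RNA of every chain of the receptor was found there. Of 17 adhesion receptor genes, 9 were measured at 10 CPM or more. Of these, 4 were at least 2-fold higher in the coculture library (Gp5, F2r, Esam and P2rx1) and 3 at least 2-fold lower (Fcer1g, Cd9 and Cd36), with a median log2 ratio of 0.53. The share of all measured genes past 2-fold was 12.7% higher and 11.7% lower. This list and those below were chosen with earlier results of these data known, so their counts are descriptions only.

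F2r, a thrombin receptor, stood at 5 and 1239 UMIs (log2 ratio 7.89), and Esam, a junction protein of endothelium and platelets, at 1 and 415 (8.63, 6.14 to 13.94). The 3 lower genes were Cd36, a scavenger receptor, with a log2 ratio of -2.77, Fcer1g, an Fc receptor chain, at -1.63, and Cd9, a tetraspanin, at -1.42. Vwf, the ligand of the Gp1bb complex, was close between the libraries as a whole, at 33.2 and 23.1 CPM. In the coculture, however, 95.8% of its UMIs lay in the megakaryocyte-marker cluster.

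Most integrin partners stood close between the libraries, as did 6554 of the 8668 measured genes. Of 10 partner and activation genes, 9 were measured, with a median log2 ratio of 0.00. At least 2-fold higher were 2 (Itga6, a laminin receptor chain, 3.61, and Rasgrp2, the exchange factor for Rap1, 1.46). At least 2-fold lower was 1 (Itga5, -1.0). The shares of all measured genes were 12.7% higher and 11.7% lower, so nothing is read from these counts. Itgav, the other chain that pairs with Itgb3, was at 15.5 and 18.7 CPM (0.28). Fermt3 and Tln1, whose proteins bind integrin tails and activate Itga2b with Itgb3, had log2 ratios of 0.04 and -0.12. The megakaryocyte-marker cluster held 30.0% and 16.4% of their coculture UMIs, against 89.0% for Itgb3.

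The granule list had 18 of 20 genes measured, with a median log2 ratio of 2.00. Of these, 11 were at least 2-fold higher and 0 as far lower, against 12.7% and 11.7% of all measured genes. Against 0 UMIs without MSC, with a floor of 3 UMIs over the library, Mmrn1 (multimerin, which binds factor V in alpha granules) was at least 134-fold higher. Rab27b, a small GTPase of dense granule release, was likewise at least 353-fold higher. The megakaryocyte-marker cluster held 99.1% of the Mmrn1 UMIs but 57.0% of those of Rab27b. Srgn, the proteoglycan that holds Pf4 in granules, stood at 432 and 3731 CPM (log2 ratio 3.11), with 3.64% of its coculture UMIs in that cluster, so the list mixes genes of the cluster with genes of other cells.

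Of 11 genes on the megakaryocyte regulator list, mostly transcription factors, all were measured, with a median log2 ratio of 2.87. Of these, 8 were higher by 2-fold or more and 0 lower by as much, against 12.7% and 11.7% of all measured genes. Gata1, a factor of megakaryocytes, red cells, mast cells and eosinophils, had 0 and 753 UMIs (at least 240-fold higher), with 49.8% of them in the megakaryocyte-marker cluster. Gata2 (7.03) and Gfi1b (6.36) were also higher. Fli1, Nfe2 and Runx1, which myeloid cells also use, had log2 ratios of 0.30, 0.17 and -0.52. The cytoskeleton and signalling list had 10 of 13 genes measured, with 4 higher and 3 lower past 2-fold and a median of 0.06.

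The CXC chemokine genes beside Pf4 and Ppbp on chromosome 5 were spread over the clusters in other proportions. Of 5 such genes 2 were measured, both at least 2-fold higher in the coculture, against 12.7% of all measured genes. Cxcl2 stood at 260.6 and 573 CPM and Cxcl3, whose gene lies 12719 bases from Pf4, at 45.7 and 859 CPM. Cluster 2 held 83.7% and 88.6% of their coculture UMIs, and Cxcl3 stood at 6.95 CPM in the megakaryocyte-marker cluster. In the coculture barcodes of cluster 1, which also held Pf4 and Ppbp, Cxcl2 and Cxcl3 stood at 857 and 949 CPM. Cxcl5, whose gene lies 6893 bases from Ppbp, had 0 and 177 UMIs, 73 of the latter in 1 barcode of cluster 17 and 70 in 20 barcodes of the megakaryocyte-marker cluster. In cluster 2, Cxcl3 stood at 4687, 4725 and 5512 CPM over the sets with no Pf4, 1 to 9 and 10 or more UMIs, a narrower range than that of Ppbp. Over the same sets of cluster 1 in the coculture, Cxcl3 stood at 105, 327 and 1467 CPM. In macrophage-like cluster 0 without MSC it stood at 13.2, 37.1 and 147 CPM, so in both of these clusters Cxcl3 was higher beside more Pf4.

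Of 7 receptor and binding partner genes, 4 were measured, with a median log2 ratio of 0.11. Past 2-fold, 1 was higher and 0 lower, against 12.7% and 11.7% of all measured genes. Cxcr2, the receptor for the neutrophil-drawing forms of Ppbp, stood at 64.0 and 88.4 CPM over the libraries (log2 ratio 0.47), and at 345 CPM in cluster 2. Ackr1, an atypical receptor that binds chemokines without signalling as the others do, had 0 and 869 UMIs (at least 277-fold higher), with 98.8% of them in the megakaryocyte-marker cluster. The TREM relatives of Treml1 did not share its pattern: of 5 genes, 4 were measured, with Treml2 at 1.25, Trem1 at 0.24, Trem3 at -0.76 and Trem2 at -2.23 on the log2 scale.

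Likeness was measured as Pearson's r of log2(CPM + 5) over the 17 clusters of at least 20 barcodes, as a description of points that share 2 libraries and differ in depth. Pf4 and Ppbp were most like each other (0.93), followed by Src (0.82) and Pon3 (0.81) for Pf4 and by Tspan18 (0.86) and Timp3 (0.79) for Ppbp. Gp1bb was most like Mmrn1 (0.998), Gucy1b3 (0.996) and Mfsd2b (0.995), and Treml1 most like Bgn, Atoh8 and Sdpr, all at 0.998. These values near 1 rest on a single high cluster. Itga2b was most like Rab27b, Gata1 and Homer2, each at 0.97, and Itgb3 most like Tanc2 (0.92), Gpc4 (0.91) and Cuedc1 (0.87). Between the 6 genes, r was 0.63 for Pf4 with Gp1bb, 0.39 for Pf4 with Itga2b and 0.81 for Gp1bb with Itgb3.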

How the data were processed

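The authors deposited raw UMI counts per gene and barcode as sparse matrices, 1 per library, made with a 3′ kit that reads 1 end of each transcript. Cell Ranger, bcl2fastq and the build mm10 are named in the submitters' processing notes, and per the file headers the software was version 3.1.0. Not given in the sources used here are the annotation release and the cell-calling rule. The 6 genes and the gene lists were chosen with earlier results of these data known. Genes named are the 6, list genes at 10 CPM or more in either library, and the 3 genes most like each of the 6; other list genes and set genes were chosen after their values were seen.

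Counts were summed over kept barcodes. A gene with 0 UMIs took a floor of 3. Intervals are exact Poisson (CPM), Clopper-Pearson (shares) and conditional binomial (ratios). With 1 library per group no test was run. Barcodes were clustered in scanpy 1.11.5 (counts scaled to 10000, 2000 variable genes without the 6, 30 components, 15 neighbours, Leiden resolution 0.8, igraph 0.11.9). Names came from marker lists, with at least 3 markers at 2-fold; the scoring was set with the data in view. Positions came from GENCODE M21, which held 47224 of the 47729 identifiers. edgeR 4.0.16 gave TMM scaling factors only. The calculations were tested on simulated data. Other filters, scalings, thinning, clusterings and minimum levels were tried. No doublet caller was run. The values of 1 list gene are not reported here.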

Additional observations from a re-analysis of the deposited data

Results flagged for a closer look

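The 129 coculture barcodes left out by the filters, at a median of 755 UMIs, also held these genes, at levels above those of the 363 barcodes left out of the library without MSC. Pf4 stood at 5409 CPM there, from 692 UMIs in 25 barcodes, against 29.5 CPM from 15 UMIs in the other library. Ppbp stood at 101.6 CPM (13 UMIs in 4 barcodes), Gp1bb at 429.9 CPM (55 UMIs in 6 barcodes), Itgb3 at 265.7 CPM (34 UMIs in 14 barcodes) and Itga2b at 1532 CPM (196 UMIs in 28 barcodes). Treml1 had 3 UMIs. Of the Pf4 UMIs, 640 lay in 14 of the 95 barcodes with under 500 genes, and 1 barcode held up to 448. What these barcodes hold was not tested.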

How the results depend on the processing

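No paired analysis was possible because each group has 1 library. No log2 ratio of the 6 genes changed sign under any alternative, but the order of clusters and the balance of higher and lower genes did change. Of the alternative values of the principal results, 47 stayed within the counting interval of the value reported (or, for counts of genes, within 1.5 times) and 26 did not, and of the other values 52 did and 32 did not. Without the 5% of barcodes with most UMIs, the log2 ratio was 4.38 for Pf4 and 4.32 for Treml1. As a mean of each barcode's own CPM, it was 4.68 for Pf4, 7.64 for Ppbp, 4.97 for Gp1bb and 6.93 for Itga2b. In Gp1bb-free barcodes, Pf4 stood at 440.5 CPM with a stricter filter on genes and mitochondrial share, 382 without the deepest 5%, 684 without any of the 4 glycoprotein and receptor genes, 456 with up to 1 Gp1bb UMI allowed, 446 after thinning and 423 outside the megakaryocyte-marker cluster (added after the data were seen). Ppbp stood at 61.2 without the deepest 5%, 114 without the 4 genes and 45.8 after thinning. The set without the 4 genes also lacks the Itga2b-positive barcodes of the eosinophil-like and basophil or mast cell-like clusters. At Leiden resolutions 0.4 and 1.2, the cluster highest in Arg1 stood at 1753 and 1704 CPM for Pf4 and 289 and 161 for Ppbp, and the cluster highest in C1qa at 1753 and 1802 for Pf4 and 289 and 483 for Ppbp; at 0.4 both are the same cluster. Pf4 was therefore higher in the cluster highest in C1qa than in that highest in Arg1 at 1.2, and at 0.4 Ppbp was lower there than in the megakaryocyte-marker cluster (446), both against the order reported. With the 6 genes among the variable genes, Ppbp in the latter stood at 558. At a 50 CPM minimum, 403 of 3465 genes (11.6%) were at least 2-fold higher and 513 lower, so that lower genes outnumbered higher ones, against 1104 higher and 1010 lower at 10 CPM, and at 10 UMIs or more 3824 of 16315 (23.4%) and 1898. Without MSC the 5 genes other than Pf4 rest on 6 to 24 UMIs, which limits the precision of their ratios.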
